A study of Danio rerio with 2 samples.

Results

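The cells described here are leukocytes of the larval zebrafish gut in which no transcript of rorc was detected. They were selected on measured values. A barcode was kept where 500 genes or more were detected and mitochondrial genes held no more than 25% of its unique molecular identifiers (UMIs, counts of distinct captured transcripts). A kept barcode was taken as a rorc-negative leukocyte when it had at least 3 of the 5 leukocyte genes coro1a, lcp1, laptm5, wasb and arpc1b, at least 1 UMI of coro1a, no UMI of epcam and no UMI of rorc. This gave 229 of 9318 kept cells, with 106 of 3967 cells in the il26KO library and 123 of 5351 cells in the WT library. Another 108 leukocytes passed every other criterion and had a rorc UMI, 48 in il26KO and 60 in WT, and these rorc-expressing leukocytes are the cells closest to the ones described. The remaining kept cells, 3813 in il26KO and 5168 in WT, are all others, and barcodes with 1 to 100 UMIs are read as empty droplets that hold free RNA.

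The study profiled dissected guts at 5 days post-fertilization (dpf) by droplet single-cell RNA sequencing, with 1 library of il26KO larvae, which carry a CRISPR/Cas9 lesion in the cytokine gene il26, and 1 library of WT larvae. Both groups were untreated, and each library pooled 50 guts, dissociated in 5 tubes of 10, so single larvae cannot be told apart. No difference between the genotypes has a replicate check, no test was made between them, and every interval given is a 95% interval for counting error only. Measured values are UMIs summed over cells and scaled to the total of the same cells (counts per 1e6 UMIs, CPM), and ratios are log2 values with il26KO over WT.

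Leukocytes share a cytoskeletal and signalling toolkit that epithelial cells lack, which includes coronin (coro1a), L-plastin (lcp1) and the common leukocyte phosphatase (ptprc, CD45). At this larval age the zebrafish gut holds macrophages, neutrophils and innate lymphoid cells, while adaptive lymphocytes are still maturing. Innate lymphoid cells are sorted by their transcription factors and cytokines: rorc marks the group that makes il22, il17 and il26, gata3 with il4 and il13 marks another, and eomesa and tbx21 mark cytotoxic and interferon-making cells. A leukocyte without rorc can thus be a phagocyte, a blood progenitor or a lymphocyte of another group, or a rorc cell in which the transcript was missed.

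The il26KO library held 122200924 UMIs over 1870103 barcodes, and the WT library held 125236138 UMIs over 1867865 barcodes. The rorc-negative leukocytes had a median of 24347 UMIs and 2799 genes in il26KO and of 17747 UMIs and 2580 genes in WT, so detection ran deeper in il26KO. No barcode of a rorc-negative leukocyte occurred in both libraries, and 11 of all kept barcodes did. The targeted gene il26 (ENSDARG00000045672) had no UMI in leukocytes of either genotype, with or without rorc, so it gives no check of the labels in these cells. With 3 UMIs as the limit that a count of 0 allows, il26 could reach 1.13 CPM in il26KO and 1.28 CPM in WT in rorc-negative leukocytes, and 2.38 and 2.19 CPM in rorc-expressing ones.

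Most selected cells lay well inside the thresholds. All 5 leukocyte genes were detected in 89 of 106 il26KO cells and 81 of 123 WT cells, 4 of them in 11 and 30 cells, and 3 of them, just inside the threshold, in 6 and 12 cells. Just outside, with 2 of the genes, lay 11 il26KO and 12 WT cells. The leukocyte phosphatase ptprc, which the selection did not use, was found in 1 of the 6 il26KO and 6 of the 12 WT cells just inside and in 1 of the 11 il26KO and 1 of the 12 WT cells just outside. On the rorc side, 8 il26KO and 11 WT leukocytes were excluded for a single rorc UMI, while the median rorc-expressing leukocyte had 7.5 UMIs in il26KO and 10.5 in WT. A further 32 il26KO and 28 WT barcodes passed all criteria except that they held epcam, and their median depths of 32058 and 33358 UMIs were above those of the selected cells.

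The leukocyte label was read on genes that the selection did not use. Of these, ptprc is not a marker gene of the label, while ccr9a and runx3 are and give no outside check. The phosphatase ptprc (ENSDARG00000071437) was detected in 82 of 106 il26KO cells and 96 of 123 WT cells. It stood at 173.9 CPM in il26KO and 119.7 CPM in WT, against 3.32 and 2.23 CPM in the remaining kept cells of the 2 libraries, whose median depths were 13900 and 10070 UMIs. Of the marker genes of the label outside the selection, the gut-homing chemokine receptor ccr9a (ENSDARG00000055186) had 1092 CPM in il26KO and 801.8 CPM in WT, and the lymphocyte transcription factor runx3 (ENSDARG00000052826) had 726.8 and 715.0 CPM. In the remaining kept cells ccr9a was at 16.1 and 9.33 CPM and runx3 at 22.1 and 15.9 CPM. A ccr9a UMI was present in 92 of 106 il26KO and 89 of 123 WT cells, and a runx3 UMI in 92 and 99 cells.

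Among all leukocytes of the rule, 68.8% lacked rorc in il26KO (interval 60.9% to 76.0%, Clopper-Pearson) and 67.2% in WT (interval 59.9% to 74.0%). The absence of rorc depends on depth. When every cell was thinned to 1000 UMIs, which left out 1 il26KO cell, 89.5% lacked rorc in il26KO (interval 83.6% to 93.9%) and 85.8% in WT (interval 79.9% to 90.5%). The intervals of the genotypes overlapped before and after thinning.

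Marker lists of single blood lineages were then read in the summed cells. The selection set rorc itself, so the ILC3 list was read without it, on il22, il26, il17a/f1, il17a/f3 and il23r. These summed to 3 UMIs (1.13 CPM) in il26KO and 12 UMIs (5.13 CPM) in WT, against 184.2 and 91.3 CPM in rorc-expressing leukocytes. Within them il22 (ENSDARG00000045673) and il17a/f1 (ENSDARG00000043933) had no UMI in rorc-negative cells, while rorc-expressing leukocytes held 8 and 20 UMIs of il22 and 26 and 17 UMIs of il17a/f1 in il26KO and WT. The receptor gene il23r (ENSDARG00000052158) had 3 UMIs in il26KO and 10 in WT, against 167 and 77 in rorc-expressing cells. Of the T cell list, 8 of 11 annotated genes had a UMI, cd247, rag1 and rag2 had none, and the sum was 22.6 CPM in il26KO and 22.2 CPM in WT. The sum of the same genes was 74.6 and 84.0 CPM in rorc-expressing leukocytes and 5.18 and 7.65 CPM in the remaining kept cells. No T cell gene reached 50 UMIs over both libraries.

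The neutrophil list had all 12 annotated genes detected and stood at 232.2 CPM in il26KO and 196.3 CPM in WT, against 240.5 and 159.2 CPM in remaining kept cells. The neutrophil enzyme mpx (ENSDARG00000019521) was found in 1 of 106 il26KO and 5 of 123 WT cells, and lyz (ENSDARG00000057789) (lysozyme) in 2 and 2 cells. The B cell genes cd79b and cd37 had no UMI, pax5 (ENSDARG00000037383) had 5 UMIs in il26KO and 1 in WT, and cd79a (ENSDARG00000037473) stood at 3.01 and 3.85 CPM, close to its 3.96 and 3.75 CPM in the remaining kept cells. The adaptor blnk (ENSDARG00000042722), known in B cells and also in other leukocytes, had 152 UMIs in 39 il26KO cells and 48 UMIs in 25 WT cells. Of the erythrocyte list the haemoglobin gene hbae1.1 had 72 UMIs in 23 il26KO cells and 109 UMIs in 36 WT cells. The thrombocyte integrin itga2b had no UMI in either library. The NK and innate lymphoid list summed to 137.4 CPM in il26KO and 61.2 CPM in WT, against 3.79 and 3.51 CPM in remaining kept cells. In rorc-expressing leukocytes it was higher, at 482.8 and 499.1 CPM. At least 2 of its genes were found in 18 of 106 il26KO and 13 of 123 WT rorc-negative cells. The receptor chain il2rb, described with group 5, held 243 of the 365 il26KO and 116 of the 143 WT UMIs of that list. Among its other genes, eomesa (ENSDARG00000006640) had 29 UMIs in 5 il26KO cells and 1 UMI in 1 WT cell, gzmk (ENSDARG00000028780) (a granzyme) had 28 UMIs in 10 il26KO cells and 5 UMIs in 4 WT cells, and tbx21 (ENSDARG00000004473) had 2 and 3 UMIs. In il26KO a single cell held 37.9% of the eomesa UMIs, and 32.1% of the gzmk UMIs lay in a single cell.

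To describe how the cells vary among themselves, all 229 were clustered together on variable genes that left out the genes of the selection. The groups were numbered 0 to 7 by size, and a group was given a lineage name only where at least 3 markers of a list fixed for the lineage were raised in it. This named group 1 haematopoietic progenitor-like, group 2 macrophage-like and group 7 ILC2-like. The other 5 groups stayed unnamed. The genes that define a group were used to make it, so their levels describe it and are not tested. The plot of detection by group shows ptprc in most cells of every group, and ccr9a in most cells of every group but the progenitor-like one.

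**Figure D1:**
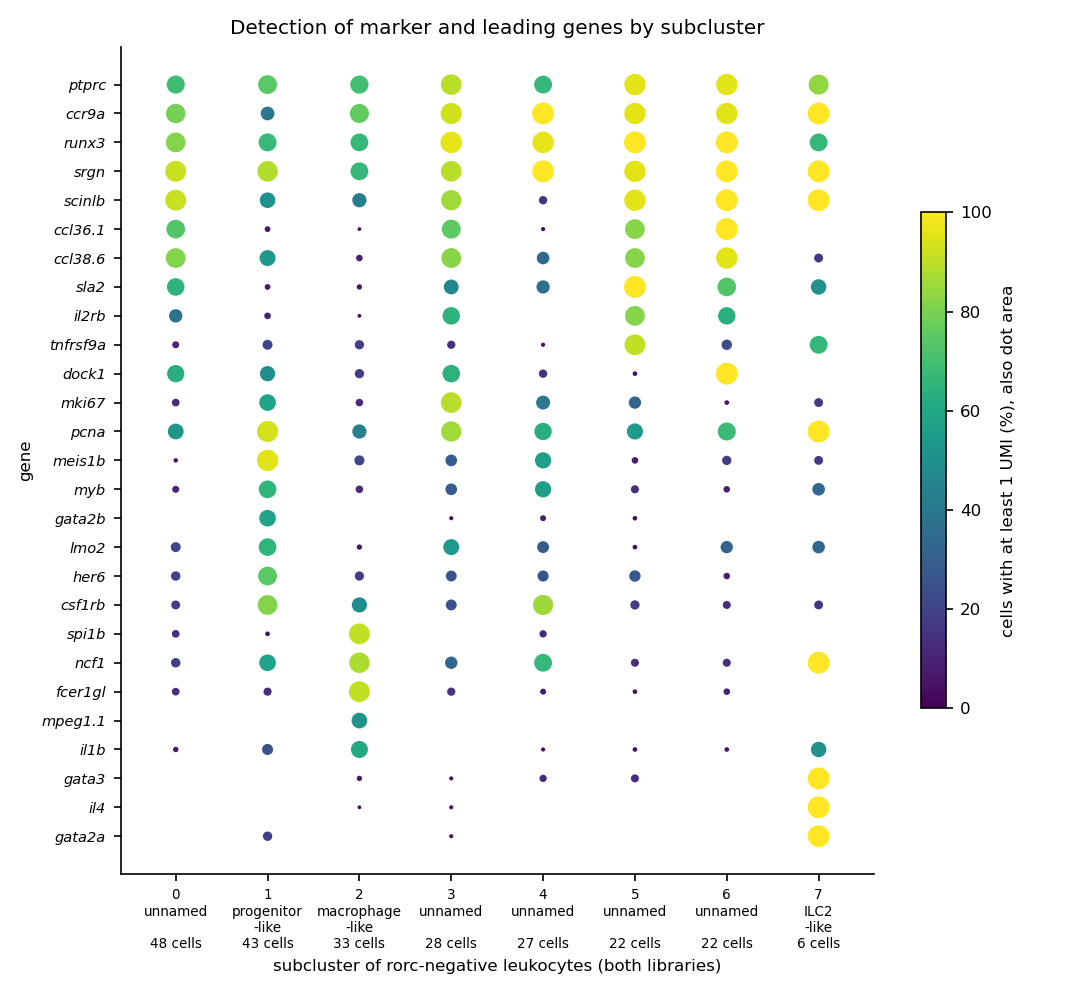
Share of cells with at least 1 UMI of a gene (rows) in each group of rorc-negative leukocytes (columns, both libraries together, number of cells under each name), given by dot colour and dot area in percent. The progenitor genes meis1b, myb, gata2b and lmo2 were most often detected in group 1, the phagocyte genes spi1b, fcer1gl and mpeg1.1 in group 2, and gata3 and il4 in the 6 cells of group 7.

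The haematopoietic progenitor-like group held 8 il26KO cells and 35 WT cells. It was named on myb, gata2b, lmo2 and meis1b, transcription regulators of blood stem and progenitor cells, and its other leading genes were the Notch-pathway repressor her6 (ENSDARG00000006514) and the DNA methyltransferase dnmt3bb.1 (ENSDARG00000036791), known in zebrafish blood stem cells. Its cells had a median of 33790 UMIs in il26KO and 30400 UMIs in WT, above the medians of all rorc-negative leukocytes. In it meis1b (ENSDARG00000012078) was detected in 7 of 8 il26KO and 34 of 35 WT cells at 334.9 and 517.4 CPM, gata2b (ENSDARG00000009094) in 5 of 8 and 20 of 35 cells at 125.6 and 125.1 CPM, and her6 in 7 of 8 and 25 of 35 cells at 996.3 and 1157 CPM. The homing receptor ccr9a was detected in only 3 of 8 il26KO and 14 of 35 WT cells, and runx3 in 3 of 8 and 26 of 35 cells. Replication genes were present in both libraries, with mcm7 (a helicase subunit) in 8 of 8 il26KO and 30 of 35 WT cells and pcna in 7 of 8 and 33 of 35 cells.

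Cells with progenitor markers were fewer among the il26KO cells than among the WT cells by more than counting error. As a share of rorc-negative leukocytes, the group held 7.55% of il26KO cells (8 of 106, interval 3.32% to 14.3%) and 28.5% of WT cells (35 of 123, interval 20.7% to 37.3%). The log2 ratio was -1.92, bounded by -3.23 and -0.78. Since group membership rests on clustering, the share was also read from the marker list alone, as cells with UMIs of at least 2 of its genes after thinning to 5000 UMIs per cell, a measure added after the data had been seen. By that measure 9 of 100 il26KO cells (9.0%, interval 4.20% to 16.4%) and 31 of 108 WT cells (28.7%, interval 20.4% to 38.2%) were positive. The log2 value of the ratio was -1.67, with bounds of -2.93 and -0.57. Thinning left out 6 il26KO and 15 WT cells. The share among the remaining kept cells, read in the same way, was 3.80% in il26KO and 3.45% in WT. At 1000 UMIs per cell, 1 of 105 il26KO and 5 of 123 WT cells were positive, a log2 ratio of -2.09 within counting error (interval -7.66 to 1.07). Without thinning the counts were 23 of 106 il26KO cells (21.7%) and 46 of 123 WT cells (37.4%).

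**Figure D2:**
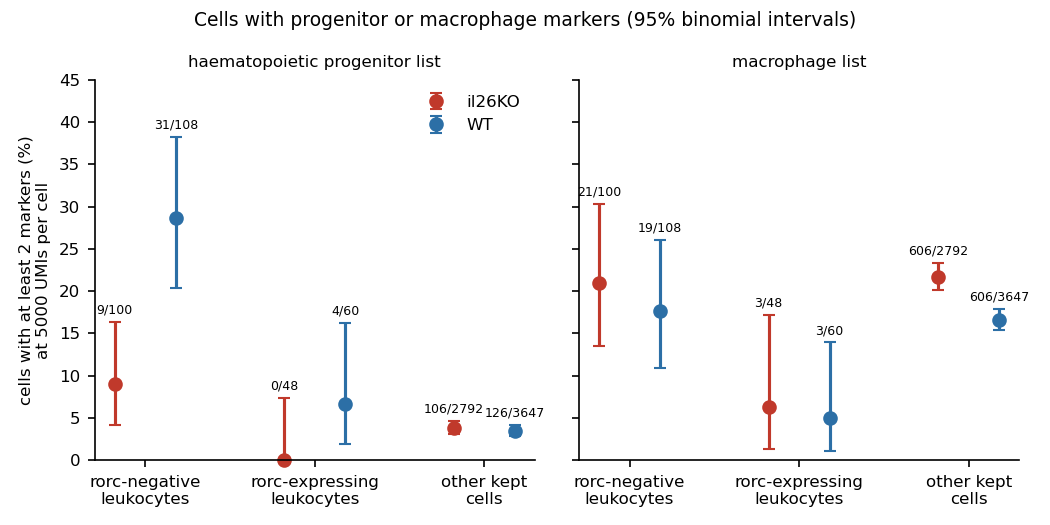
Percent of cells with UMIs of at least 2 genes of the haematopoietic progenitor list (left) or the macrophage list (right) at 5000 UMIs per cell, in il26KO (red) and WT (blue), with 95% Clopper-Pearson intervals and the counts of cells. The progenitor list was positive in 9 of 100 il26KO and 31 of 108 WT rorc-negative leukocytes, and the macrophage list in 21 of 100 and 19 of 108, against 3 of 48 and 3 of 60 rorc-expressing leukocytes. In remaining kept cells the macrophage list was positive at similar shares, in 606 of 2792 il26KO and 606 of 3647 WT cells.

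The count of progenitor-like cells was lower in il26KO at each clustering setting tried. The progenitor-like cells numbered 12 in il26KO and 37 in WT at a resolution of 0.4, 7 and 38 at a resolution of 1.2, and 11 and 37 when every gene of the marker lists was left out of the clustering, with 41 cells shared with the group described above. Among rorc-expressing leukocytes 0 of 48 il26KO cells (interval up to 7.40%) and 4 of 60 WT cells (6.67%) had at least 2 progenitor genes at 5000 UMIs. In summed counts over all rorc-negative leukocytes, meis1b had 174 UMIs in il26KO and 568 in WT, gata2b had 32 and 123, lmo2 (ENSDARG00000095019) had 68 and 148, and myb (ENSDARG00000053666) had 121 and 163. Their log2 ratios were -1.89 (interval -2.14 to -1.64), -2.09 (interval -2.74 to -1.56), -1.30 (interval -1.74 to -0.88) and -0.61 (interval -0.97 to -0.27). The same ratios among the remaining kept cells were -0.22, 0.02, -0.43 and 0.07. Whether the 2 pools of guts differed in staging, dissection or dissociation in a way that moves these cells was not tested.

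The macrophage-like group held 18 il26KO cells and 15 WT cells and was named on 11 markers, the most of any group. Its leading genes were the chemokine ccl35.1 (ENSDARG00000103466), the Fc receptor chain fcer1gl (ENSDARG00000104077), the oxidase subunits ncf1 (ENSDARG00000033735) and ncf4 (ENSDARG00000040812), the antigen-processing protease ctss2.2 (ENSDARG00000013771) and the myeloid transcription factor spi1b (ENSDARG00000000767) (PU.1). The pore-forming protein gene mpeg1.1 (ENSDARG00000055290), a standard macrophage label in zebrafish, was detected in 10 of 18 il26KO and 7 of 15 WT cells of this group and in no other rorc-negative leukocyte. The inflammatory cytokine il1b (ENSDARG00000098700) was found in 10 of 18 and 10 of 15 of its cells at 1324 and 1556 CPM. The invariant chain cd74b (ENSDARG00000036628), needed for MHC class II transport, was found in 10 of 18 and 9 of 15 cells at 292.5 and 404.7 CPM.

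Macrophage genes did not all stand alike in the 2 genotypes within that group. The level of spi1b was 418.5 CPM in il26KO and 433.6 CPM in WT, and ctss2.2 was at 608.7 and 640.7 CPM, both within counting error. The chemokine ccl35.1 was at 2532 CPM in il26KO and 6484 CPM in WT, a log2 ratio of -1.36 (interval -1.47 to -1.24). The matrix-binding mfap4 (ENSDARG00000090783) was at 974.9 and 428.7 CPM (log2 1.17, interval 0.85 to 1.53), but its 410 il26KO UMIs came from 6 cells and 35.1% of them from 1 cell. The scavenger receptor marco (ENSDARG00000059294) had 172 UMIs in 4 il26KO rorc-negative leukocytes, 64.0% of them in 1 cell, and 33 UMIs in 7 WT cells. The group made up 18 of 106 il26KO cells (interval 10.4% to 25.5%) and 15 of 123 WT cells (interval 6.99% to 19.3%). These shares differed by 0.48 on the log2 scale, with bounds of -0.59 and 1.57, which is within counting error. By the marker list at 5000 UMIs, 21 of 100 il26KO and 19 of 108 WT cells were positive (21.0% and 17.6%), against 3 of 48 il26KO and 3 of 60 WT rorc-expressing leukocytes (6.25% and 5.0%) and 21.7% and 16.6% of remaining kept cells. At this cutoff the list thus did not separate rorc-negative leukocytes from remaining kept cells.

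The ILC2-like group had 3 cells in each library. All 6 held UMIs of gata3 (ENSDARG00000016526), the regulator of type 2 lymphocytes, and of the type 2 cytokine il4 (ENSDARG00000087909). The second type 2 cytokine, il13 (ENSDARG00000077809), was found in 2 of 3 il26KO cells with 18 UMIs and in 3 of 3 WT cells with 136 UMIs, 61.0% of the WT UMIs in 1 cell. Nearly all il4 of the rorc-negative leukocytes lay in this group, with 124 of 125 il26KO UMIs and 109 of 113 WT UMIs. Its 2 leading genes by fold, si:dkey-21e2.15 (ENSDARG00000092788) and si:dkey-21e2.16 (ENSDARG00000094077), are known only by clone names. The symbol MFAP4 (1 of many), a sum of several features, was also among the leading genes. It stood at log2 7.62 over the other rorc-negative leukocytes, above il4 at 6.17. The group also held gata2a (ENSDARG00000059327), on the mast cell and eosinophil list, in all 6 cells at 218.7 CPM in il26KO and 349.5 CPM in WT, whereas cpa5 and kita of that list had no UMI in it. The name thus rests on 3 markers in 6 cells.

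Of the unnamed groups, groups 0 and 6 shared leading genes. Group 0 had 28 il26KO and 20 WT cells and was led by the chemokines ccl36.1 (ENSDARG00000105263) and ccl38.6 (ENSDARG00000041923), the actin-severing protein gene scinlb (ENSDARG00000058348) and the Src-like adaptor sla2 (ENSDARG00000020788). Group 6 had 7 il26KO and 15 WT cells and was led by ccl36.1 and ccl38.6 together with dock1 (ENSDARG00000099093), a Rac activator, the TNF family ligand tnfsf14 (ENSDARG00000111357) and the TNF receptor adaptor traf1 (ENSDARG00000069482). In group 6, ccl36.1 was found in 7 of 7 il26KO and 15 of 15 WT cells at 3444 and 2013 CPM, traf1 at 334.3 and 937.5 CPM, and the cytokine tnfb (ENSDARG00000013598) at 465.6 and 1026 CPM. In group 0, ccl36.1 was at 1637 and 1055 CPM in 21 of 28 il26KO and 14 of 20 WT cells.

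Group 5, with 11 cells in each library, carried lymphocyte receptor and signalling genes. The shared IL-2 and IL-15 receptor chain il2rb (ENSDARG00000075720) was detected in 10 of 11 il26KO and 8 of 11 WT cells at 378.2 and 356.8 CPM, the IL-7 receptor il7r (ENSDARG00000078970) in 7 and 6 cells at 50.2 and 49.2 CPM, and the lymphocyte transcription factor tcf7 (ENSDARG00000038672) in 9 and 10 cells at 185.3 and 184.5 CPM. The costimulatory receptor tnfrsf9a (ENSDARG00000060498) (4-1BB) was found in 10 of 11 cells of each library, and sla2 in all 22. The immune-type receptor nitr6b was found in 5 of 11 cells of each library at 196.8 CPM in il26KO and 147.6 CPM in WT, whereas nitr4a and nitr9, used as labels of zebrafish innate lymphoid cells, were in 2 and 3 cells and in 4 and 2 cells. The group stayed unnamed because il2rb alone of the NK and innate lymphoid list was raised enough in it.

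Group 3, with 17 il26KO and 11 WT cells, was led by the cycling genes mki67 (ENSDARG00000091150) and hmgb2a (ENSDARG00000029722). The first was found in 15 of 17 and 10 of 11 cells at 424.3 and 407.5 CPM. Its cells also held ccr9a in 16 of 17 and 10 of 11 cells and ccl36.1 in 12 of 17 and 9 of 11 cells, as group 0 did. Group 4, with 14 il26KO and 13 WT cells, was led by the unnamed transcript si:ch211-161c3.6 (ENSDARG00000078781), the signalling adaptor gab2 (ENSDARG00000105120), the cyclin ccnd2a (ENSDARG00000051748) and the repressor her9 (ENSDARG00000056438). It held ccr9a in all 27 cells and runx3 in 14 of 14 and 12 of 13 cells. The receptor gene csf1rb was found in 12 of 14 and 11 of 13 cells and myb in 7 of 14 and 8 of 13 cells. Although csf1rb is on the macrophage list, it was not among the markers raised in the macrophage-like group.

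Against the remaining kept cells, 644 of the 5951 genes with at least 50 UMIs in rorc-negative leukocytes were at least 4-fold higher in both libraries, which is 10.8% of them. The leukocyte selection fixed much of this contrast, so it is a description. The 10 genes with the largest differences in the smaller of the 2 ratios included the receptors tnfrsf18 (ENSDARG00000076800) (GITR) and il10ra (ENSDARG00000100383), the integrin itgae.2 (ENSDARG00000057787), known for holding lymphocytes in epithelium, the death ligand faslg (ENSDARG00000098913), and spi1b, fcer1gl and cd74b. The level of itgae.2 was 152.1 CPM in il26KO and 103.1 CPM in WT, against 2.14 and 1.21 CPM in remaining kept cells, and it was found in 75 of 106 and 80 of 123 cells. The level of tnfrsf18 was 37.3 and 64.2 CPM, against 0.31 and 0.24 CPM, in 21 and 19 cells. The receptor gene il10ra was at 47.4 and 44.9 CPM, against 0.65 and 0.59 CPM, in 36 and 45 cells. Against rorc-expressing leukocytes, tnfrsf18 was higher in both libraries (log2 1.87 in il26KO and 2.14 in WT). There il10ra was higher in il26KO (log2 1.05) but not in WT (0.02). The ratios of faslg, 0.30 and -0.43, were within counting error.

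The nearest cells for comparison were the rorc-expressing leukocytes of the same libraries. Both sets met the same leukocyte rule and differed in it by rorc alone, and their median depths were 24347 and 23785 UMIs in il26KO and 17747 and 19165.5 UMIs in WT. In both libraries, 120 of 7623 genes were at least 4-fold higher in rorc-negative cells (1.57%) and 54 were at least 4-fold lower (0.708%). The plot of these ratios shows 26 genes picked with their values known.

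**Figure D3:**
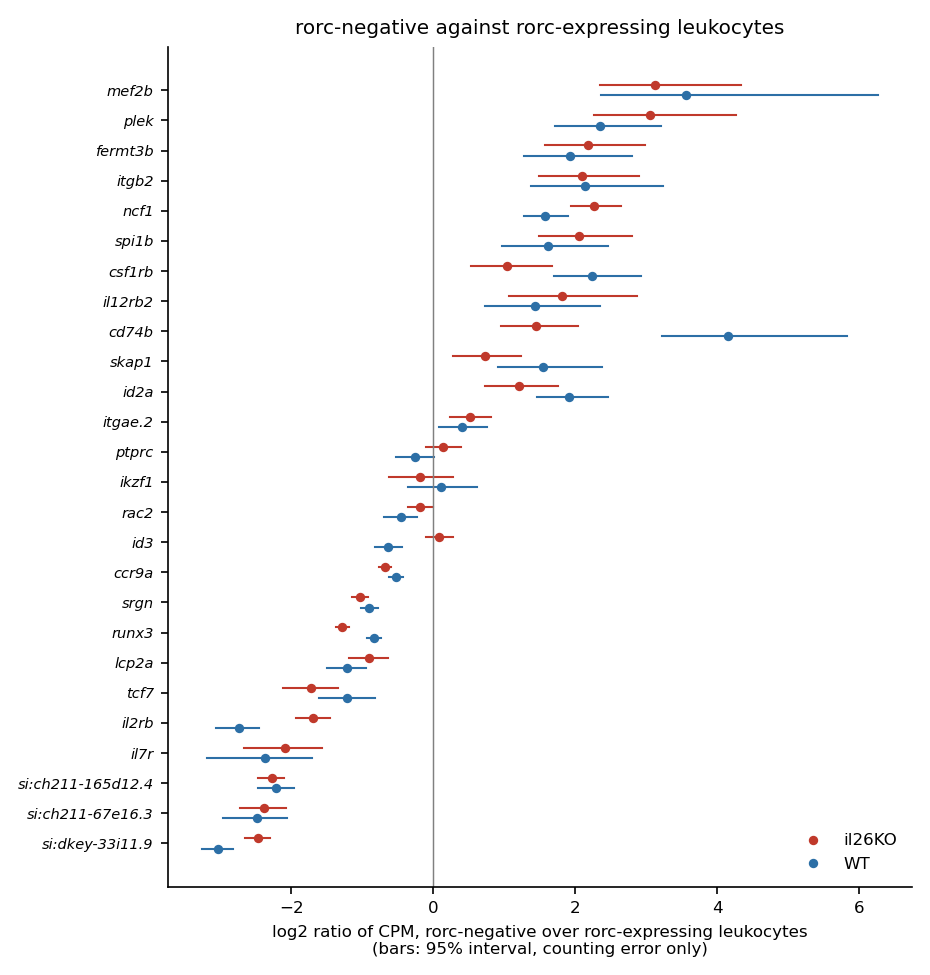
Log2 ratio of CPM in rorc-negative over rorc-expressing leukocytes for 26 genes, in il26KO (red) and WT (blue), with 95% intervals for counting error. Phagocyte and integrin genes such as plek, itgb2, ncf1 and spi1b lie right of 0 in both libraries, and il7r, il2rb, tcf7, runx3 and ccr9a lie left of 0 in both.

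Among genes higher in rorc-negative cells, the adaptor gene plek (ENSDARG00000104325) (pleckstrin, known in platelets and phagocytes) had log2 ratios of 3.05 in il26KO and 2.35 in WT, and rorc-expressing cells held it at 7.94 and 13.2 CPM. The integrin subunit itgb2 (ENSDARG00000016939) was at 70.8 CPM in il26KO and 41.5 CPM in WT, against 15.9 and 8.77 CPM, and its activator fermt3b (ENSDARG00000030938) at 75.3 and 52.6 CPM, against 15.9 and 13.2 CPM. The oxidase subunit ncf1 was at 294.7 and 229.2 CPM, against 60.4 and 76.7 CPM, and spi1b at 79.0 and 44.5 CPM, against 18.3 and 13.9 CPM. Of these, spi1b was found in 22 of 106 il26KO and 19 of 123 WT rorc-negative cells, and the macrophage-like group held 16 of those il26KO and 14 of those WT cells.

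Ranks against rorc-expressing cells were taken among genes that passed the spread rule. Of the 5 with the highest ratios in the smaller of the 2 libraries, mef2b (ENSDARG00000093170) and runx1 (ENSDARG00000087646) are named transcription factors of lymphoid and blood cells and plk2b (ENSDARG00000019130) is a stress-responsive kinase. The level of mef2b was 75.7 CPM in il26KO and 34.2 CPM in WT, against 7.94 and 2.19 CPM in rorc-expressing cells, and it was found in 39 of 106 and 28 of 123 cells. Most of its UMIs came from groups 0 and 3, which held 65 and 91 of 201 il26KO UMIs and 20 and 32 of 80 WT UMIs. The level of plk2b was 54.2 and 124.0 CPM, against 3.97 and 13.2 CPM, and the progenitor-like group held 69 of 144 il26KO and 248 of 290 WT UMIs. For runx1, rorc-expressing cells had no UMI, and rorc-negative cells had 19 UMIs in 7 il26KO cells and 63 UMIs in 27 WT cells. With a floor of 3 UMIs per library this was at least 3.00-fold higher in il26KO and at least 12.3-fold higher in WT. The other 2 genes of this rule were the uncharacterised si:dkey-261j4.4 (ENSDARG00000035150) and BX000438.1 (ENSDARG00000097767).

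Several lymphocyte genes were lower in rorc-negative cells in both libraries. The receptor il2rb was at 91.5 CPM in il26KO and 49.6 CPM in WT, against 296.2 and 333.9 CPM, log2 ratios of -1.69 and -2.74. For il7r the log2 ratios were -2.09 and -2.38, for tcf7 -1.72 and -1.21, for the adaptor lcp2a (ENSDARG00000055955) (SLP-76) -0.91 and -1.22, for runx3 -1.28 and -0.84, for the granule proteoglycan srgn (ENSDARG00000077069) -1.04 and -0.90, and for ccr9a -0.68 and -0.53. The immune-type receptor nitr5 (ENSDARG00000077557) had 21 and 32 UMIs, against 174 and 235 in rorc-expressing cells, and nitr4a (ENSDARG00000075288) had 10 and 5 UMIs, against 157 and 126. The 5 lowest genes of those that passed the spread rule were all uncharacterised transcripts. The ranking needs 50 UMIs in rorc-negative cells, so it leaves out genes nearly absent there, such as nitr4a. One of the 5 was si:ch211-165d12.4 (ENSDARG00000079353) at 129.5 and 76.1 CPM, against 630.5 and 354.4 CPM. Another, si:dkey-33i11.9 (ENSDARG00000102555), was at 140.4 and 89.4 CPM, against 782.9 and 733.6 CPM, but it was also at 487.5 and 427.7 CPM in remaining kept cells. The pan-leukocyte phosphatase ptprc did not separate the sets, with log2 ratios of 0.14 and -0.26.

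Other lymphocyte genes were shared or ran the other way. The integrin itgae.2 was higher in rorc-negative cells in both libraries (log2 0.52 and 0.41), and ikzf1 (ENSDARG00000013539), a transcription factor of all lymphocytes, differed by -0.19 and 0.11, within counting error. The transcription factor inhibitor id2a (ENSDARG00000055283), needed for innate lymphoid cells in mice, was at 74.5 CPM in il26KO and 112.0 CPM in WT, against 31.8 and 29.2 CPM in rorc-expressing cells, but it was at 167.4 and 195.1 CPM in remaining kept cells. The interleukin-12 receptor chain il12rb2 (ENSDARG00000052157) was higher by log2 1.82 in il26KO and 1.43 in WT and was found in 37 rorc-negative cells of each library. The lymphocyte adaptor skap1 (ENSDARG00000001498) was at 64.0 and 44.5 CPM, against 38.1 and 14.6 CPM, and the log2 ratios of blnk were 1.66 and 2.84.

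Between the genotypes, 263 of the 5951 measured genes were at least 2-fold higher in il26KO rorc-negative leukocytes (4.42%) and 363 were at least 2-fold lower (6.1%), with a median log2 ratio of -0.05. Of the genes called, 42.0% were thus higher, and this share was 30.3% when CPM was averaged over cells in place of summed. The spread rule asked for UMIs in at least 10 cells and no cell over 20% of them, in the library with the higher value. Among the 5258 measured genes that passed it, 99 were at least 2-fold higher (1.88%) and 247 lower (4.7%), so that 28.6% of those called were higher. Each gene passed through its higher library only, and WT held more cells (123 against 106). The split by direction thus depends on the rule. Over all measured genes, intervals lay wholly above 0 for 931 (15.6%) and wholly below 0 for 1214 (20.4%). Leaving out the progenitor-like cells, 8 in il26KO and 35 in WT, changed the counts to 201 higher and 155 lower genes of 4695 measured. That alternative was chosen after the data had been seen.

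The 10 genes of largest higher ratio and the 10 of largest lower ratio, among those that passed the spread rule, are shown in the plot of ratios across cell sets. The rule checked the library with the higher value only. In the lower library a gene can lie in few cells, or mostly in a single cell. On the higher side BX649485.1 (ENSDARG00000087623) had 121 UMIs in 43 il26KO cells and 8 UMIs in 5 WT cells (log2 3.58, interval 2.71 to 4.98), and the ratio was 3.12 in rorc-expressing leukocytes, 2.95 in remaining kept cells and 3.25 in empty droplets. The zinc finger gene znf1107 (ENSDARG00000113564) had 211 UMIs in 48 il26KO cells and 24 UMIs in 17 WT cells (log2 2.90), and 1.46, 1.98 and 1.32 in the other sets. The liver fatty acid carrier fabp10a (ENSDARG00000038439) (47 UMIs in il26KO and 3 in WT) and the apolipoprotein apoa2 (ENSDARG00000015866) (log2 2.16) had log2 ratios of 2.95 and 2.42 in empty droplets. The kynurenine aminotransferase kyat3 (ENSDARG00000101791) had 93 UMIs in 39 il26KO cells and 13 UMIs in 11 WT cells (log2 2.56), and 3.02 in rorc-expressing leukocytes.

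**Figure D4:**
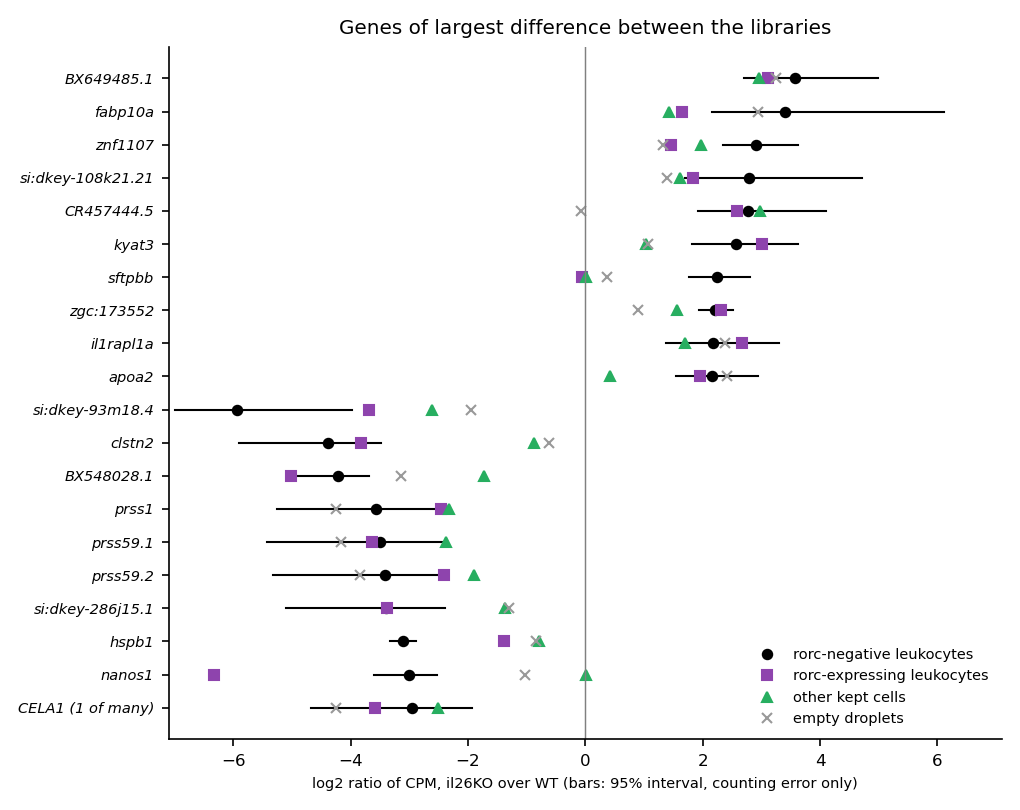
Log2 ratio of CPM, il26KO over WT, of the 10 genes with the largest higher and the 10 with the largest lower ratios in rorc-negative leukocytes (black, with 95% intervals for counting error), beside the same ratio in rorc-expressing leukocytes, remaining kept cells and empty droplets. The points of BX649485.1 and BX548028.1 lie on the same side in all 4 sets, and those of sftpbb in the other sets lie near 0. All ratios use 1 added UMI, on which the points of si:dkey-93m18.4 in both leukocyte sets and of nanos1 in rorc-expressing cells depend, since il26KO was at 0 there. The interval of si:dkey-93m18.4 thus has no lower end.

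Among the higher genes sftpbb (ENSDARG00000067566), a surfactant protein B gene, had values near 0 in the other sets. It had 209 UMIs in 28 il26KO cells and 38 UMIs in 11 WT cells, 78.7 and 16.3 CPM (log2 2.25, interval 1.77 to 2.81), while the ratio was -0.05 in rorc-expressing leukocytes, 0.01 in remaining kept cells and 0.37 in empty droplets. It lay in the macrophage-like group, which held 191 of the 209 il26KO UMIs in 15 of 18 cells and 26 of the 38 WT UMIs in 6 of 15 cells. Within that group sftpbb was at 454.2 CPM in il26KO and 125.3 CPM in WT (log2 1.81, interval 1.26 to 2.51). A single il26KO cell held 19.6% of the UMIs and a single WT cell 31.6%.

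On the lower side, si:dkey-93m18.4 (ENSDARG00000092967) had no UMI in il26KO and 53 UMIs in 26 WT cells, at least 20.1-fold lower in il26KO with a floor of 3 UMIs, and it was lower in the remaining kept cells too, with 0.41 CPM in il26KO and 2.57 CPM in WT. The transcript BX548028.1 (ENSDARG00000103436) was at 9.79 CPM in 15 il26KO cells and 187.3 CPM in 49 WT cells (log2 -4.21), and -5.01, -1.73 and -3.14 in the other sets. The calsyntenin gene clstn2 (ENSDARG00000060637) had 7 UMIs in 6 il26KO cells and 146 UMIs in 26 WT cells (log2 -4.38), and -3.83 in rorc-expressing leukocytes against -0.88 in remaining kept cells. Without the progenitor-like cells the log2 ratio of clstn2 was -2.69 (interval -4.43 to -1.53). The digestive enzyme genes prss1 (ENSDARG00000042993), prss59.1 (ENSDARG00000079274), prss59.2 (ENSDARG00000073742) and CELA1 (1 of many), made by the pancreas, were lower by log2 -3.57, -3.51, -3.41 and -2.96. In empty droplets their ratios were -4.25, -4.17, -3.84 and -4.25.

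The translational repressor nanos1 (ENSDARG00000109337) had 35 UMIs in 13 il26KO cells and 254 UMIs in 33 WT cells (log2 -3.01, interval -3.60 to -2.53), and the ratio was 0.02 in remaining kept cells. The progenitor-like group held 23 of the 35 il26KO UMIs and 241 of the 254 WT UMIs. Without it the log2 ratio was -0.90 (interval -2.17 to 0.34), within counting error. Inside the group nanos1 was at 96.3 CPM in il26KO and 255.5 CPM in WT (log2 -1.35, interval -2.09 to -0.79). The small heat shock protein gene hspb1 (ENSDARG00000041065) had 195 UMIs in 32 il26KO cells and 1480 UMIs in 56 WT cells, and 75.9% of the il26KO UMIs came from 1 cell. Its log2 ratio was -3.10 (interval -3.33 to -2.89), and -4.43 without the progenitor-like cells. In group 0 hspb1 was at 27.5 and 480.1 CPM (log2 -4.05) and in group 6 at 29.9 and 810.7 CPM (log2 -4.51). It was lower in rorc-expressing leukocytes, remaining kept cells and empty droplets too, at -1.38, -0.79 and -0.85.

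Gene lists were summed for each library, most of them of leukocyte function, with the cell cycle, dissociation response and free gut RNA lists beside them. Of the 17 lists, 10 were higher, free gut RNA among them, and 5 lower in il26KO beyond counting error. Since the progenitor-like cells made up a smaller share in il26KO, the plot of lists gives the ratios with and without them. Without them 5 lists were higher and 8 lower. Leaving them out also changed the totals used for scaling, since more of them were WT cells. A gene with no UMI in either library, cahz, went from log2 -0.18 to -0.79 in this way. A list with few UMIs in those cells thus moves down without any change in the other cells. The median over all measured genes, -0.05, is the background for the medians of the lists.

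**Figure D5:**
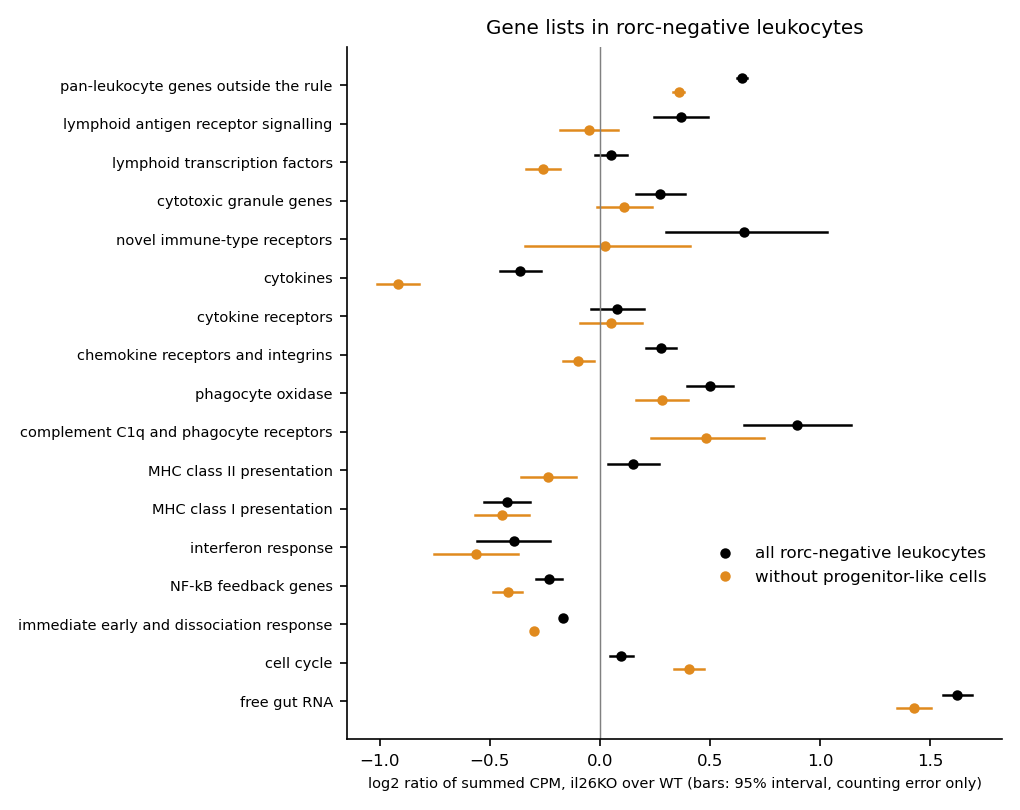
Log2 ratio of summed CPM, il26KO over WT, of 17 gene lists in all rorc-negative leukocytes (black) and without the progenitor-like cells (orange), with 95% intervals for counting error. MHC class I, interferon response, NF-kB feedback and cytokine lists lie left of 0 in both. The pan-leukocyte, phagocyte oxidase, C1q and phagocyte receptor, and free gut RNA lists lie right of 0 in both.

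Lists whose sums were lower with and without the progenitor-like cells were MHC class I, interferon response, NF-kB feedback, cytokines and the dissociation response. With rorc-expressing leukocytes added, the interferon response (-0.12, interval -0.25 to 0.01) and NF-kB feedback (-0.045, interval -0.091 to 0.001) lists came within counting error. MHC class I genes summed to 522.4 CPM in il26KO and 699.6 CPM in WT (log2 -0.42, interval -0.53 to -0.32, and -0.45 without the progenitor-like cells). No gene of the 5 measured was 2-fold lower, and 3 were lower beyond counting error, against 20.4% of all measured genes. Among them were the light chain genes b2m (ENSDARG00000053136) with 96 and 141 UMIs and b2ml (ENSDARG00000015887) at 184.8 and 247.2 CPM. Without the progenitor-like cells b2m was at -0.30 (interval -0.80 to 0.22), within counting error, and b2ml at -0.57. In rorc-expressing leukocytes the list was at 536.0 CPM in il26KO and 482.2 CPM in WT, with b2m at log2 2.01 and b2ml at -0.04. The interferon response list summed to 205.9 and 270.3 CPM (log2 -0.39, interval -0.56 to -0.23, and -0.56 without the progenitor-like cells), with the regulators irf7 (ENSDARG00000045661) at 64.7 and 111.2 CPM and irf1b (ENSDARG00000043249) at 37.6 and 64.2 CPM. Of its 14 genes, 13 were detected and 4 measured. In rorc-expressing leukocytes irf7 and irf1b ran the other way, at log2 0.32 and 0.33.

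The NF-kB feedback list summed to 1699 CPM in il26KO and 1996 CPM in WT (log2 -0.23, interval -0.29 to -0.17), with 4 of 9 measured genes lower beyond counting error and 1 higher, against 20.4% and 15.6% of all measured genes. The ubiquitin editor tnfaip3 (ENSDARG00000027777) was at 79.4 and 128.3 CPM (log2 -0.69) and the inhibitor nfkbiab (ENSDARG00000007693) at 669.6 and 824.9 CPM (log2 -0.30), while tnfaip8l2b was higher at log2 1.02. Cytokines summed to 676.4 CPM in il26KO and 869.4 CPM in WT (log2 -0.36, interval -0.46 to -0.27), while the median of the 9 measured genes was -0.04, near the background. Of these, 3 were lower and 1 higher beyond counting error, and il13, described with the ILC2-like cells, was at 6.78 and 58.2 CPM. The TNF gene tnfb had 619 UMIs in 40 il26KO cells and 975 UMIs in 45 WT cells (log2 -0.84, interval -0.99 to -0.69), although 25.4% of the WT UMIs came from 1 cell. The macrophage growth factor il34 (ENSDARG00000091003) had 52 UMIs in 25 il26KO cells and 121 UMIs in 38 WT cells (log2 -1.39, interval -1.90 to -0.92), and -0.72 in rorc-expressing leukocytes. The cytokine il1b ran higher at 217.6 and 165.9 CPM (log2 0.39, interval 0.20 to 0.58) in 16 and 24 cells, and -0.16 without the progenitor-like cells, which is within counting error.

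Lists that were higher included the pan-leukocyte genes outside the selection, at 15570 CPM in il26KO and 9949 CPM in WT (log2 0.65, interval 0.62 to 0.67, and 0.36 without the progenitor-like cells). The actin-binding peptide gene tmsb4x (ENSDARG00000077777), at 14090 and 8772 CPM, made up most of that sum and was at 5141 and 4623 CPM in remaining kept cells. Of the 13 genes, 7 were higher beyond counting error, against 15.6% of all measured genes, among them ptprc (log2 0.54, interval 0.32 to 0.76), the Rac GTPase rac2 (ENSDARG00000038010) at 282.3 and 148.4 CPM (log2 0.93) and hcls1 (ENSDARG00000012729), a leukocyte cortactin relative, at 129.1 and 56.9 CPM (log2 1.18), while cxcr4b (ENSDARG00000041959) was lower (log2 -0.56). The gene coro1a (ENSDARG00000054610), used in the selection, was at 782.9 and 430.2 CPM (log2 0.86), and its ratio was 0.83 in rorc-expressing leukocytes and 1.03 in remaining kept cells. The phagocyte oxidase list, which also holds rac2, was at 741.1 and 523.9 CPM (log2 0.50, interval 0.40 to 0.61). Of its 6 measured genes, 4 were higher and 1 lower beyond counting error, against 15.6% and 20.4% of all measured genes. The lower one was the oxidase subunit gene cyba (log2 -0.50, interval -0.91 to -0.10). The C1q and phagocyte receptor list was at 166.4 and 89.4 CPM (log2 0.89, interval 0.66 to 1.14). Its ratio was -0.0 when CPM was averaged over cells, where each cell has equal weight. The receptor gene marco held 172 of its 442 il26KO UMIs. Of the C1q genes, c1qa was at log2 2.54, with 32 UMIs in 3 il26KO cells and 62.5% of them in 1 cell. The others, c1qb and c1qc, were at -0.30 and -0.60, within counting error. Without the progenitor-like cells c1qa, c1qb and c1qc stood at 1.93, -0.91 and -1.21, the last 2 lower beyond counting error. Each moved by as much as a gene with no UMI (-0.18 to -0.79), which is the change in the totals used for scaling. In il26KO and WT, c1qb lay in 2 and 6 cells and c1qc in 6 and 6. For both, 52.2% of the il26KO UMIs came from 1 cell.

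The lymphocyte lists depended on which cells were counted, and without the progenitor-like cells also on the changed totals. Antigen receptor signalling genes summed to 493.8 CPM in il26KO and 382.7 CPM in WT (log2 0.37), and the ratio was -0.05 without the progenitor-like cells. Chemokine receptors and integrins were at 1617 and 1333 CPM (log2 0.28), and -0.10 without those cells. MHC class II genes were at 507.4 and 456.7 CPM (log2 0.15), and -0.24 without them. Lymphoid transcription factors were at 1288 and 1245 CPM (log2 0.05, interval -0.02 to 0.12), within counting error, but at 0.16 (interval 0.11 to 0.21) with rorc-expressing leukocytes added and -0.26 (interval -0.34 to -0.18) without the progenitor-like cells. Cytokine receptors were at 467.1 and 442.2 CPM (log2 0.08, interval -0.04 to 0.20), within counting error. Cytotoxic granule genes were at 587.9 and 486.2 CPM (log2 0.27), of which srgn made up most, and the ratio came within counting error without the progenitor-like cells (0.11, interval -0.01 to 0.24) and with CPM averaged over cells (0.11). The immune-type receptor (NITR) list was at 67.0 and 42.3 CPM (log2 0.66, interval 0.30 to 1.03), with 15 of 22 genes detected and 2 measured. It was 0.02 without the progenitor-like cells, and its level in rorc-expressing leukocytes was 435.9 CPM in il26KO and 434.0 CPM in WT.

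Cell cycle genes summed to 2425 CPM in il26KO and 2268 CPM in WT (log2 0.10, interval 0.04 to 0.15). Of its 23 measured genes, 5 were at least 2-fold higher and 1 lower, against 4.42% and 6.1% of all measured genes, with a median of 0.26. The replication genes gins2 (ENSDARG00000002304) (log2 -1.74), mcm7 (ENSDARG00000101180) at 81.3 and 130.4 CPM (log2 -0.68) and mcm6 (ENSDARG00000057683) at 44.4 and 65.0 CPM (log2 -0.55) were lower in il26KO. The 5 genes past 2-fold included the mitotic genes cdk1 (ENSDARG00000087554) with 96 and 34 UMIs (log2 1.29) and ube2c at 35.8 and 15.0 CPM (log2 1.23). Another of them was kpna2 (ENSDARG00000038066) at 60.6 and 15.8 CPM (log2 1.91). Without the progenitor-like cells the replication genes stood at -1.06 for gins2, within counting error, -0.24 for mcm7 and -0.04 for mcm6. In the same cells cdk1, ube2c and kpna2 stood at 1.15, 0.87 and 1.70, and the list as a whole at 0.40. The immediate early and dissociation list, which responds to the preparation of cells, was at 35430 and 39870 CPM (log2 -0.17). The heat shock gene hsp90aa1.2 (ENSDARG00000024746) made up much of that sum, at 18700 and 22610 CPM. The median of the 22 measured genes was -0.008, near the background. Of these, 7 were higher and 10 lower beyond counting error, against 15.6% and 20.4% of all measured genes.

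Markers of other gut cells moved between the libraries as well, and their part in the results was not tested. The epithelium list, with 7 of 8 genes detected and epcam at 0 by the selection, summed to 1061 CPM in il26KO and 552.9 CPM in WT, against 19420 and 17480 CPM in remaining kept cells. The free gut RNA list of enterocyte and pancreas transcripts was at 3051 and 990.0 CPM (log2 1.62), and 1 il26KO cell held 70.5% of the fabp2 (ENSDARG00000006427) and 80.0% of the fabp1b.1 (ENSDARG00000059227) UMIs there. Without the 5 il26KO and 4 WT cells over 0.5% of such UMIs the ratio was -0.03, and MHC class II, whose list holds the protease ctsl.1, became -0.11. The pancreas acinar list had 17 UMIs in il26KO and 223 in WT, and stood at 137.8 and 2695 CPM in empty droplets. The mesenchyme list was at 22.6 and 129.1 CPM and the endothelium list at 7.15 and 66.7 CPM, but in WT 96.7% of the col1a2 (ENSDARG00000020007) and 76.1% of the plvapb (ENSDARG00000045003) UMIs came from 1 cell each.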

How the data were processed

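Dissected guts of 5 dpf larvae were profiled with droplet 3′ single-cell chemistry. The authors made the deposited count matrices, whole UMI counts per gene and barcode without normalization, using Cell Ranger 7.1.0 (version from the headers of the files) and the danRer11 build named in the submitters' processing notes. The annotation release and the handling of intronic reads are not given in the sources used here. Matrices were unfiltered, features that share a symbol were summed (for example nitr6b, ube2c and CELA1 (1 of many)), and doublets were not removed in the main analysis. The cells and gene lists were chosen with earlier results of these data known. UMIs of the selected cells were summed per library, and log2 ratios used 1 added UMI. Exact 95% intervals were given for the conditional ratio of counts, Poisson levels and Clopper-Pearson shares. The ratio interval and the fold calls were run on simulated Poisson counts. Those counts do not hold the clumping of UMIs in single cells, so the run is no check of the intervals for genes held by few cells. With 1 library per genotype no test was run. A gene was measured at 50 UMIs. Named genes were those of the lists and genes ranked among those that passed a spread rule. The rule asked for at least 10 cells, and no cell over 20% of the UMIs, in the genotype with the higher value only. The ranks taken were the 10 highest and 10 lowest il26KO over WT ratios and the 10 highest ratios over remaining kept cells. Added to these were the 5 highest and 5 lowest against rorc-expressing leukocytes in the smaller of both libraries. Clusters came from scanpy 1.11.5 and leidenalg 0.10.2 (2000 variable genes, 20 components, 15 neighbours, resolution 0.8), and a lineage name needed 3 markers present in at least 10% of a cluster's cells. Intervals used scipy 1.17.1 and Python 3.11.15. Alternatives changed the cell filters, doublet removal, scaling, UMI minimum, cell set and clustering. The share of the selected cells among kept cells is not reported here. All ratios rest on 2 libraries.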

Additional observations from a re-analysis of the deposited data

How the results depend on the processing

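No paired analysis was possible because each genotype has 1 library. Of the values that answer a comparison, 99 stayed and 13 moved under the alternatives, and of the list values 138 stayed, 39 moved and 10 reversed. Stayed means that a value lay inside the interval of the main value, or that a count was close to the main count. Without the mitochondrial filter the same rorc-negative leukocytes were selected, so most values of that setting could not move. Reversed means that a value beyond counting error changed sign, also where the new value lay within counting error. The share of leukocytes without rorc was 89.5% in il26KO and 85.8% in WT when cells were thinned to 1000 UMIs. The number of genes counted changed with the setting and was 5951 in the main one. Genes at least 2-fold higher and lower in il26KO numbered 581 and 985 of 9790 at a minimum of 20 UMIs. They numbered 1897 and 4767 of 21393 with no minimum, and 140 and 124 of 3582 at a minimum of 100 UMIs. Lower genes numbered 566 of 7624 with rorc-expressing leukocytes added and 155 of 4695 without the progenitor-like cells, against 363 of 5951 in the main setting. The share of higher genes among those called was 53.0% at 100 UMIs, 28.5% with no minimum, 26.5% with rorc-expressing leukocytes added, 30.3% with CPM averaged over cells and 56.5% without the progenitor-like cells. Lists higher beyond counting error numbered 6 with CPM averaged over cells and 5 without the progenitor-like cells, where 8 were lower. The MHC class II list reversed to -0.17 in cells with at least 4 of the 5 leukocyte genes, -0.21 with CPM averaged over cells, -0.24 without the progenitor-like cells and -0.11 without cells high in free gut RNA, and the C1q list came to -0.0 with CPM averaged over cells. With rorc-expressing leukocytes added, the immune-type receptor list was -0.01 and the free gut RNA list -0.64, and the free gut RNA list was -0.026 without cells high in it. Without the progenitor-like cells, antigen receptor signalling was -0.051 and chemokine receptors and integrins -0.10. Of these reversed values, those of C1q, immune-type receptors and antigen receptor signalling lay within counting error. So did MHC class II and free gut RNA without cells high in free gut RNA. The causes were not tested beyond the cells each setting leaves out. Leaving out progenitor-like cells or cells high in free gut RNA, the clustering without marker genes and the marker counts at 5000 UMIs were added once values had been seen. Doublet scoring removed 126 il26KO and 229 WT barcodes, 9 and 13 of them rorc-negative leukocytes. Depth limits genes with few UMIs, and a rorc transcript can be missed in a shallow cell.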
